A study of Mus musculus with 35 samples.

Results

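The effect of genotype on the response of the mouse brain to a stroke was read from 20 of the 35 arrays of the series. These were the arrays of operated animals, chosen by their titles. All mice were male and on the FVB background. They were wild type or carried a beta2 adrenergic receptor knockout, and the labels name no tissue to which the knockout was limited. Each genotype gave 3 arrays after sham surgery and 7 after middle cerebral artery occlusion (MCAO), in which the vessel that feeds most of a hemisphere is blocked. Animals were killed 24 h after surgery. RNA came from the ischemic hemisphere or, after sham, from the hemisphere of the same side. The other 15 arrays came from naive mice, 8 wild type and 7 knockout, which had no surgery in the labels and were normalized separately. They enter only as a side comparison of the genotypes. The labels number the arrays and do not say whether each is a separate animal, so p-values measure the spread between arrays, which may be technical.

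The beta2 adrenergic receptor binds adrenaline and noradrenaline and couples to the stimulatory G protein, which raises cyclic AMP and activates protein kinase A. In brain it is found on neurons, astrocytes and microglia, and its activation in glia is known to dampen inflammatory gene expression. Within a day of an occlusion, injured tissue induces chaperones and acute-phase and chemokine genes, resting microglia lose their surface receptors, and neuronal transcripts decline. The question put to the arrays was which of these responses differ between the genotypes.

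For each gene the interaction is the change from sham to MCAO in knockout mice minus the same change in wild type mice, on the log2 scale. A positive value means a larger rise or a smaller fall in the knockout. It equals the genotype difference (knockout minus wild type) after MCAO minus the genotype difference after sham, so a gene that is low in knockout sham arrays has a positive interaction even where the ischemic hemispheres are alike. The share of each interaction that came from the sham arrays was computed from these terms. An interaction was placed in the sham arrays where that share was at least 70%, in the MCAO arrays where theirs was at least 70%, and called split otherwise. Calls were made in limma where the p adjusted by Benjamini and Hochberg over all 18193 genes measured was under 0.05. Errors given as SE are those of this fit.

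The sham arrays of the genotypes differed in overall shape. The interquartile range of the log2 signals was 3.33 to 3.42 in the knockout sham arrays and 3.61 to 3.80 in the wild type sham arrays. After MCAO it was 3.32 to 3.64 in wild type and 3.49 to 3.82 in knockout. The signal of the 3 prime beta-actin control minus its 5 prime control, a reading of RNA integrity and labelling, was 1.60 to 1.76 in knockout sham and 0.863 to 1.01 in wild type sham arrays. It spread from 0.387 to 1.70 in wild type MCAO and from 0.426 to 1.75 in knockout MCAO arrays. The sham groups therefore did not overlap in either measure, and genotype cannot be told apart from them among 6 sham arrays. The number of arrays, 3 per genotype after sham, limits the precision of every interaction.

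The interaction was called in 1744 genes, which is 9.59% of those tested. A more positive change in the knockout was called in 744 genes (4.09%) and a more negative one in 1000 (5.5%). The 744 included members of the heat shock, endoplasmic reticulum stress, microglial, clock and cyclic AMP lists. The 1000 included Nfkb2 and acute-phase and chemokine genes. The NF-kappaB list held 1 call among 18 genes, near the share over all genes. The cyclic AMP list held 2 among 28, near the share of genes at its signal level. When each array was centred on its median, 1701 genes were called, of which 416 were positive and 1285 negative, so the positive share moved from 42.7% to 24.5%. As deposited, most of the difference stood in the sham arrays. Of the 1744 genes, 1136 had at least 70% of their interaction from the sham arrays, 603 were split, and 5 had at least 70% from the MCAO arrays. Among all genes tested 49.5% stood with the sham arrays and 20.7% with the MCAO arrays. The median share from the sham arrays was 74.9% in the called genes and 69.5% over all genes. With 3 sham and 7 MCAO arrays per genotype, spread between arrays alone tends to put the larger share in the sham arrays. The placement is therefore a description and no test of where the genotypes differ.

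Tested directly, knockout and wild type differed after sham in 1101 genes (6.05%) and after MCAO in 8 genes (0.044%). This was in spite of the better precision after MCAO, where the median SE of a genotype difference was 0.101 against 0.155 after sham. The contrast of these counts turned around when the actin measure was added as a covariate, with 6 genes called after sham and 986 after MCAO. After repeated quantile normalization they were 71 and 8. Of the interaction genes 854 were also called after sham and 2, Dusp6 and Ppp2r1b, after MCAO, while 888 were called in neither. The knockout and wild type sham values did not overlap in 1673 of the 1744 genes, or 95.9%, against 42.2% of all genes. After MCAO they did not overlap in 16, or 0.917%, against 0.368%. The sham values enter the interaction itself, so the first of these shares describes the calls and is no test of them.

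**Figure D1:**
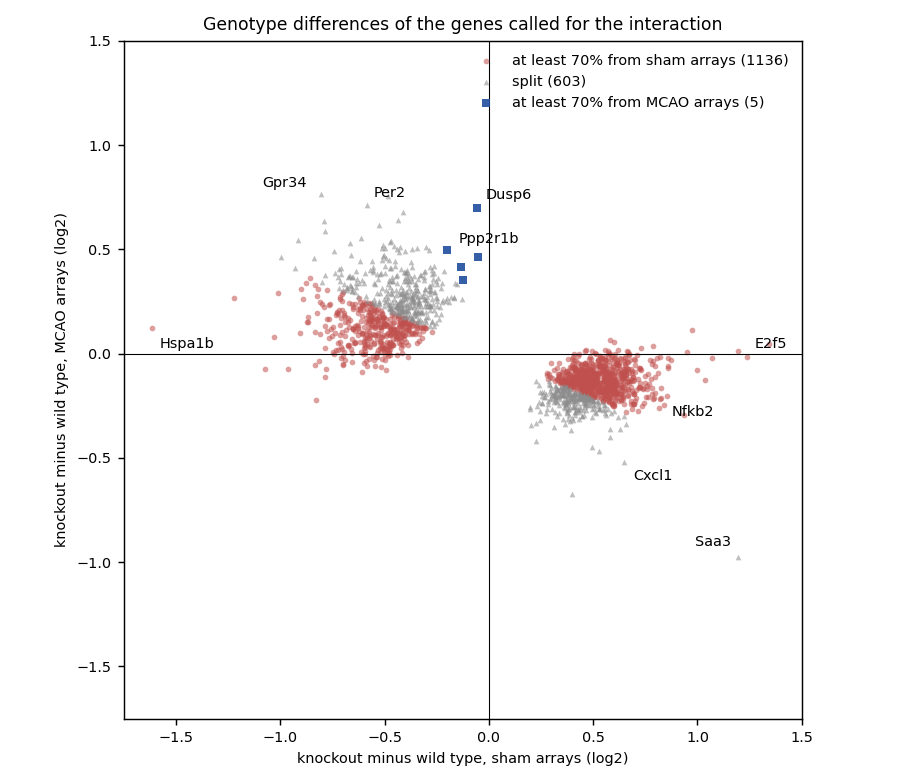
Each point is a gene called for the interaction, with the knockout minus wild type difference in sham arrays on the horizontal axis and in MCAO arrays on the vertical axis, both in log2 units. The cloud is wide along the sham axis and narrow along the MCAO axis, and the 5 blue squares near the vertical line are the genes whose interaction stood in the MCAO arrays.

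By the direction of the response itself, MCAO changed 2901 genes in wild type (15.9%) and 4545 in knockout mice (25.0%). These comparisons share no arrays with each other, but each shares its sham arrays with the interaction. Among the interaction genes 325 responded in wild type only by the call, 1035 in knockout only, 11 rose in both genotypes and 6 fell in both. A further 92 were called in opposite directions, of which 76 rose in wild type and fell in knockout and 16 did the reverse. The remaining 275 passed in neither genotype.

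Single sham arrays carried many of the calls. Without knockout sham array 3, limma called 0 genes, with 4253 at an unadjusted p under 0.05 and a lowest adjusted p of 0.0702. It called 100 genes without wild type sham array 1, 342 without wild type array 2, 1016 without wild type array 3, 1659 without knockout array 1 and 173 without knockout array 2. The sizes moved less than the calls. All 1744 genes kept their sign and an unadjusted p under 0.05 in each of these 6 fits, as did 3095 of all genes, or 17.0%. The 1744 were selected by their p in these same arrays, so that outcome was nearly fixed by the selection and is no test of them. Only 76 genes were called in 5 of the 6 fits, and 301 were called in none. Leaving out single MCAO arrays gave 1040 to 2692 calls. Every interaction call in the paragraphs that follow was absent without knockout sham array 3, so the range of the interaction over the 6 fits is given for the genes described at length. Among the 68 named genes, Dusp6 was the 1 whose interaction moved by over 1.5 times in such a fit, and the others lay between 68.5% and 139.2% of their value with all arrays.

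**Figure D2:**
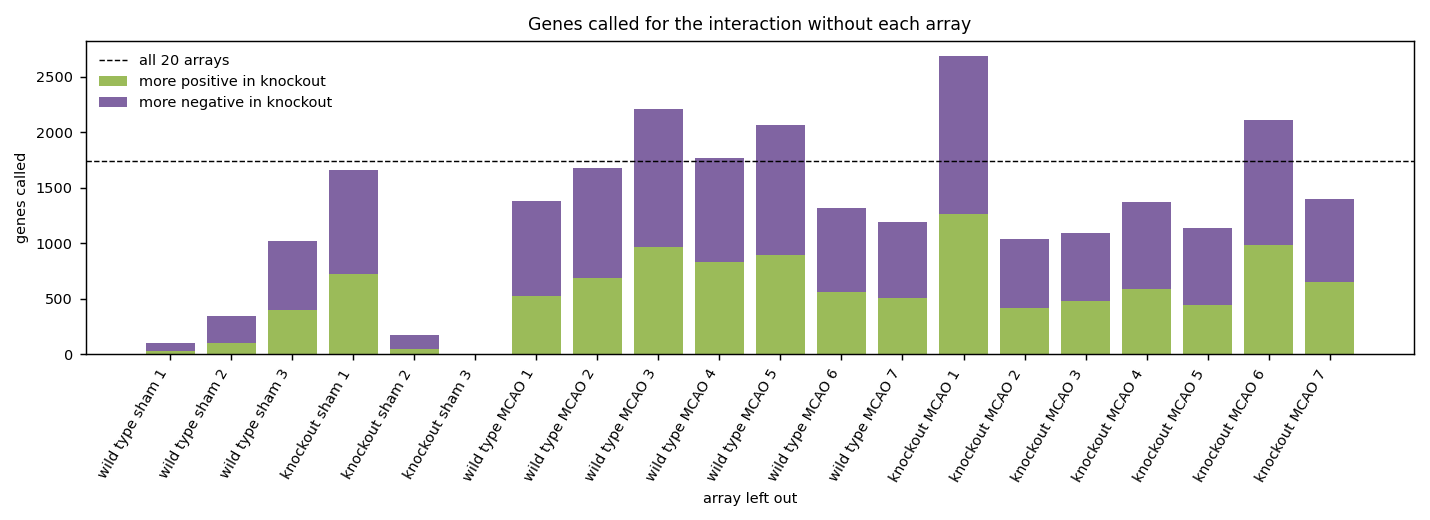
Bars give the number of genes called for the interaction when the array named below is left out, divided into genes more positive and more negative in the knockout, with a dashed line at the 1744 calls of all 20 arrays. Leaving out an MCAO array gives between 1040 and 2692 calls, while leaving out knockout sham 3 gives 0.

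The sign of the interaction followed signal strength. Of the 744 positive genes 649 lay above the median gene level of 7.46, and of the 1000 negative genes 910 lay below it. With genes ranked by level into 10 bins, the median interaction was -0.22 in the dimmest bin, -0.30 in the next and 0.27 in the ninth. The sham arrays showed the larger part, with a median genotype difference of 0.23 in the second bin and -0.18 in the ninth, against -0.08 and 0.09 after MCAO. After quantile normalization was repeated on the 20 arrays the median interaction lay between -0.06 and 0.02 in every bin, and 169 genes were called, 57 positive and 112 negative. Of these, 160 were among the 1744. With the interquartile range of each array as a covariate 0 genes were called, with 1018 at an unadjusted p under 0.05, and with the actin measure as a covariate 8. Among genes named below, the interquartile range covariate took Akap5 from 0.996 to 0.007, Per3 from 0.88 to 0.06, E2f5 from -1.26 to -0.22 and Kcnv1 from 1.24 to 0.33. It left Hspa1b at 1.74 and Nfkb2 at -0.83. The part of array shape or RNA integrity in any single gene's interaction was not tested.

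**Figure D3:**
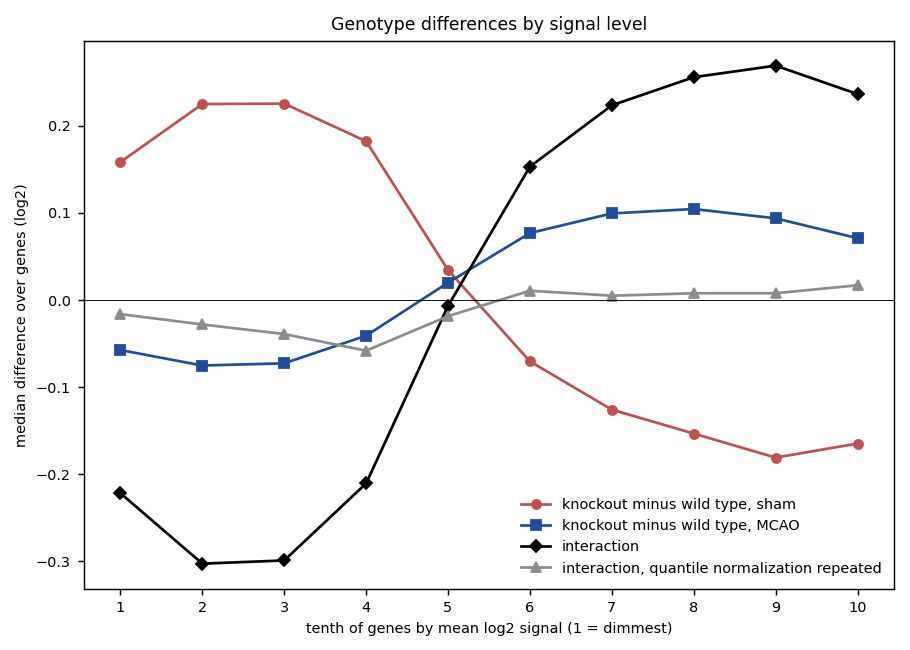
Lines give the median over genes of the genotype difference after sham, after MCAO and of the interaction, in log2 units, for 10 bins of genes from dim to bright. The sham line falls from 0.23 to -0.18, the MCAO line runs the other way over a smaller range, and the interaction after repeated quantile normalization stays near 0.

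Among inflammatory genes the interaction was negative wherever it was called. Of 24 cytokine, chemokine and acute-phase genes 0 were called positive and 3 negative, Saa3, Cxcl1 and Cxcl16, against 4.09% and 5.5% of all genes, and the median of the list was -0.41 against 0.03 over all genes tested. It was -0.36 after repeated quantile normalization and -0.51 after median centring. Of the 24 genes 14 lay below the median level, where 910 of 9096 genes were called negative and 95 positive. Of 18 genes of NF-kappaB and Toll-like receptor signalling 1, Nfkb2, was called, and the list's median was -0.11. In bulk tissue fewer cells of a type and less RNA per cell cannot be told apart.

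Nfkb2 codes for p100, the precursor of the p52 subunit of NF-kappaB. Its log2 signal was 8.46, 8.14 and 8.36 in the wild type sham arrays and 9.02, 9.24 and 9.16 in the knockout sham arrays. After MCAO the lowest, median and highest were 8.64, 8.86 and 9.05 in wild type and 8.33, 8.65 and 8.96 in knockout. All knockout sham arrays thus stood above all wild type sham arrays, and after MCAO the genotypes overlapped. Nfkb2 rose by 0.54 in wild type (adjusted p = 0.0027) and fell by 0.50 in knockout mice (adjusted p = 0.0035). The interaction was -1.04 (SE 0.16, limma adjusted p = 0.0148, n = 3, 3, 7 and 7), with 79.3% from the sham arrays, and it was -1.11 to -0.95 without single sham arrays. It was called in 5 of those 6 fits and, at -1.26, after repeated quantile normalization (adjusted p = 0.027). In naive mice the genotypes differed by 0.13 (adjusted p = 0.34).

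Saa3, an acute-phase serum amyloid gene, had the most negative interaction among genes above the median level. The wild type sham arrays read 5.47, 5.39 and 5.85 and the knockout sham arrays 6.87, 6.62 and 6.81. After MCAO the lowest, median and highest values were 9.14, 9.25 and 9.31 in wild type and 6.55, 8.84 and 9.08 in knockout. Knockout values were higher in every sham array and lower in every MCAO array, so that the ranges were apart on both sides. Neither difference was called, at 1.20 after sham (limma adjusted p = 0.088) and -0.97 after MCAO (adjusted p = 0.129). Saa3 rose by 3.66 in wild type and by 1.49 in knockout mice, an interaction of -2.17 (SE 0.51, adjusted p = 0.0198). The sham arrays gave 55.1% of it, and it was -2.31 to -2.08 without single sham arrays. The knockout MCAO arrays spread more widely than the wild type ones (SD 0.95 against 0.07), with a mean of 8.26 that lay below their median.

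Cxcl1, a neutrophil-attracting chemokine, read 7.24, 7.38 and 7.57 in wild type sham and 7.80, 8.16 and 8.17 in knockout sham arrays. After MCAO the values were 7.68, 8.42 and 8.71 (lowest, median and highest) in wild type and 7.33, 7.93 and 8.26 in knockout. The sham groups did not overlap and the MCAO groups did. Cxcl1 rose by 0.95 in wild type (adjusted p = 0.0036). In knockout mice its change was -0.21 (adjusted p = 0.47). The interaction was -1.17 (SE 0.29, adjusted p = 0.0243), split with 55.5% from the sham arrays. It was -1.29 to -1.09 without single sham arrays, with a largest unadjusted p of 0.0031. Cxcl16, a membrane-bound chemokine, followed with -0.68 (SE 0.20, adjusted p = 0.041) and 68.5% from the sham arrays, and was -0.81 to -0.61 without single ones.

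The chemokine Cxcl2 and the cytokine Il6, chosen after their values were seen, had larger differences that did not pass. The interaction of Cxcl2 was -2.61 (SE 1.15, adjusted p = 0.128) and that of Il6 was -1.55 (SE 1.10, adjusted p = 0.33). Cxcl2 ranged from 4.31 to 8.51 over the knockout MCAO arrays and from 7.37 to 10.12 over the wild type ones.

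NF-kappaB proteins bind promoters of many such genes, so the 4 called inflammatory genes were looked up among the RefSeq promoters of build GRCm38.p6, and 3 had an entry. Each window ran from 250 bases before to 50 after a start and was searched on either strand for the letters GGGANNTTC, which match part of the NF-kappaB site. Of 32851 promoters 1295 held a match, or 3.942%. The Cxcl1 window held 2 matches, which overlap, and the 3 Nfkb2 windows held 0, 3 and 1, the last of these windows overlapping the one with 3. Of those 3 matches 2 lie in the bases printed. Saa3 had no match, which says only that these letters are not in its window. The 250 bases before the start are shown 5 prime to 3 prime on the plus strand, at chr5:90890995-90891244 for Cxcl1 and chr19:46305445-46305694 for Nfkb2, with the matches in capitals:
Cxcl1: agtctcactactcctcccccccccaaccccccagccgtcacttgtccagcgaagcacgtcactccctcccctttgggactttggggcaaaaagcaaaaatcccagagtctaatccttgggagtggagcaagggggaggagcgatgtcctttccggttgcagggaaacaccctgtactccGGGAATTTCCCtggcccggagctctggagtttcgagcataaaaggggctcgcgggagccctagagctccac
Nfkb2: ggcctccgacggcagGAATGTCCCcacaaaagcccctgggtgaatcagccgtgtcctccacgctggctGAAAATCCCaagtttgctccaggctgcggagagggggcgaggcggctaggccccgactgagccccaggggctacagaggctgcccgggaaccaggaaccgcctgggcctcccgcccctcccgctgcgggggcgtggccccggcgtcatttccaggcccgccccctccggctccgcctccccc
A match is a description of the letters and no measure of binding.

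The called chaperone genes had positive interactions. Of 18 heat shock genes 2 were called positive and 0 negative, against 4.09% and 5.5% of all genes. Only 1 of the 18 lay below the median level, and at or above it 649 of 9097 genes were called positive and 90 negative. The list median was 0.48, and 4 of the 18 had a negative value that was not called. After repeated quantile normalization the median was 0.28 and 0 members were called. Of 16 genes of endoplasmic reticulum stress, 1 of them below the median level, 4 were called positive and 0 negative, with a median of 0.22. After median centring 3 were called and the median was 0.12, and after repeated quantile normalization 0 were called and it was -0.0023.

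Hspa1b, an inducible Hsp70 chaperone, was called with the largest positive interaction among genes above the median level. Its signal was 9.85, 10.21 and 9.97 in wild type sham and 8.998, 8.10 and 8.08 in knockout sham arrays. After MCAO the lowest, median and highest were 11.58, 11.93 and 13.16 in wild type and 11.72, 12.30 and 13.13 in knockout. All knockout sham arrays stood below all wild type sham arrays, and the MCAO groups covered nearly the same range. Hspa1b rose by 2.22 in wild type and by 3.95 in knockout mice, an interaction of 1.74 (SE 0.43, adjusted p = 0.0235). Of this 93.0% came from the sham arrays, where the genotype difference was -1.61 (adjusted p = 0.0224). After MCAO it was 0.12 (SE 0.24). Without single sham arrays the interaction ran from 1.58 to 2.04. In naive mice Hspa1b was also lower in the knockout, with a difference of -0.72 (adjusted p = 0.0472). Its near-identical neighbour Hspa1a, with which probes can share signal, had an interaction of -0.09 (SE 0.58, adjusted p = 0.923).

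Hspe1, the mitochondrial co-chaperonin Hsp10, rose by 0.88 in knockout mice and by 0.23 in wild type, where the change was not called. The interaction was 0.65 (SE 0.20, adjusted p = 0.0443), and 0.59 to 0.69 without single sham arrays. Hsp90b1, the endoplasmic reticulum Hsp90, read 11.33, 11.32 and 11.27 in wild type sham and 10.99, 10.78 and 10.53 in knockout sham arrays, which did not overlap. After MCAO the medians were 11.07 in wild type and 11.26 in knockout, with overlapping ranges. Its interaction was 0.75 (SE 0.16, adjusted p = 0.0176), of which 72.2% came from the sham arrays, and 0.63 to 0.86 without single ones.

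The secreted stress protein Manf (0.68, SE 0.16, adjusted p = 0.0189), the endoplasmic reticulum protein Creld2 (0.68, SE 0.16, adjusted p = 0.0213) and the co-chaperone Dnajb9 (0.59, SE 0.17, adjusted p = 0.0365) followed. All 4 of these endoplasmic reticulum genes rose after MCAO in the knockout, by 0.51 to 0.72. In wild type none of the 4 was called, with changes from -0.25 to 0.13. After repeated quantile normalization their interactions were 0.53, 0.42, 0.47 and 0.33, and none of these passed.

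**Figure D4:**
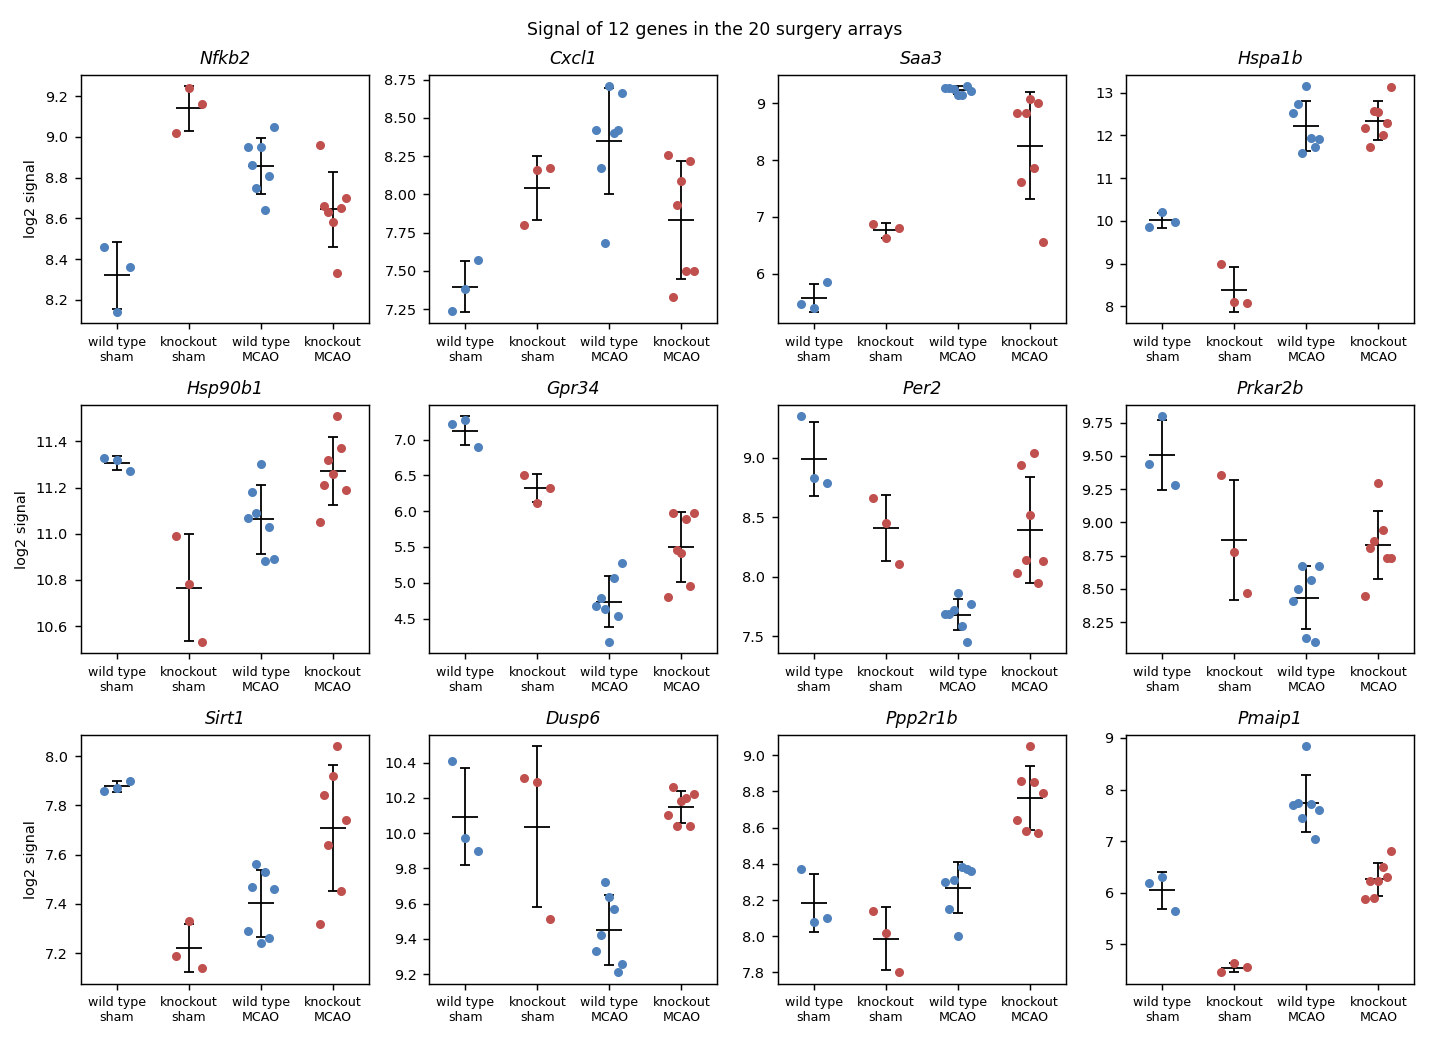
Each point is the log2 signal of a gene in an array, in columns for wild type sham, knockout sham, wild type MCAO and knockout MCAO, with the mean and SD in black and axes that do not start at 0. The sham columns are apart and the MCAO columns overlap for Nfkb2, Cxcl1, Hspa1b, Hsp90b1, Gpr34 and Sirt1. Dusp6 and Ppp2r1b separate after MCAO only. Saa3, Per2 and Pmaip1 separate after either surgery, and Prkar2b overlaps after both.

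Among 16 genes of resting microglia 5 were called positive and 1 negative, against 4.09% and 5.5% of all genes, and the list's median was 0.39 against 0.03 over all genes. After median centring 2 were called positive and 2 negative and the median was 0.29. After repeated quantile normalization 1 was called, Gpr34, and the median was 0.21. The mean level of the list lay between 7.60 and 7.78 in wild type sham, 7.46 and 7.58 in knockout sham, 6.89 and 7.32 in wild type MCAO, and 7.19 and 7.64 in knockout MCAO arrays. The knockout sham arrays lay below the wild type ones on this mean, and the MCAO groups overlapped.

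Gpr34, a lysophosphatidylserine receptor of microglia, read 7.21, 7.27 and 6.89 in wild type sham and 6.51, 6.12 and 6.32 in knockout sham arrays. After MCAO the lowest, median and highest were 4.17, 4.67 and 5.27 in wild type and 4.80, 5.46 and 5.98 in knockout. The sham groups were apart, and after MCAO the knockout median lay above the highest wild type array although the ranges overlapped. Gpr34 fell by 2.39 in wild type and by 0.82 in knockout mice, an interaction of 1.57 (SE 0.34, adjusted p = 0.0182). The sham arrays gave 51.4%, the interaction was 1.47 to 1.69 without single sham arrays, and it was called at 1.70 after repeated quantile normalization (adjusted p = 0.047).

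The purinergic receptor P2ry12, by which resting microglia sense ADP, fell by 2.71 in wild type and by 1.62 in the knockout (interaction 1.09, SE 0.34, adjusted p = 0.0475). The sham arrays gave 37.6% of this. Its relative P2ry13 fell by 1.38 and 0.73 (interaction 0.65, SE 0.19, adjusted p = 0.0363), with 41.9% from the sham arrays. The interactions stayed between 1.04 and 1.13 for P2ry12 and between 0.62 and 0.70 for P2ry13 without single sham arrays. In naive mice P2ry13 was higher in the knockout by 0.46 (adjusted p = 0.0006).

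Sall1, a transcription factor of microglial identity, had an interaction of 0.98 (SE 0.30, adjusted p = 0.0446) and rose in the knockout by 0.67. Aif1, which codes for the microglial marker Iba1, had 0.60 (SE 0.19, adjusted p = 0.0499). The knockout minus wild type difference of Aif1 was -0.83 after sham and -0.22 after MCAO, so the MCAO arrays reduced its interaction. The fructose transporter Slc2a5 went against the list with -0.75 (SE 0.21, adjusted p = 0.032), 88.0% of it from the sham arrays. P2ry12 and Aif1 were named after their values were seen.

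Most genes of infiltrating leukocytes were dim by their mean over the 20 arrays. Of 16 genes of neutrophils and monocytes 0 were called positive and 5 negative, with a median of -0.56, and 15 of the 16 lay below the median level. Over all genes 4.09% were called positive and 5.5% negative, and below the median level 910 of 9096 were called negative. After median centring 5 were called negative, and after repeated quantile normalization 0 were called. Among 12 lymphocyte genes 1, Cd8a, was called, the median was -0.47, and all 12 were below the median level. The mean level of the neutrophil and monocyte list was 5.36 to 5.45 in wild type sham and 5.56 to 5.74 in knockout sham arrays. After MCAO it was 6.09 to 6.76 in wild type and 5.43 to 6.45 in knockout arrays, so the groups were apart after sham and overlapped after MCAO.

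Mpo, the myeloperoxidase of neutrophil granules, read 4.77, 5.08 and 5.21 in wild type sham and 5.86, 5.64 and 6.13 in knockout sham arrays. After MCAO the medians were 5.27 and 5.21. Its interaction was -0.93 (SE 0.27, adjusted p = 0.0399), 92.4% from the sham arrays. Without single sham arrays it was -1.05 to -0.80, and it turned to 0.17 with the interquartile range as a covariate. The other granule genes Camp (-0.56), Ltf (-0.56) and Elane (-0.62, named after its values were seen), the integrin Itgal (-0.59) and the T cell coreceptor Cd8a (-0.80) took the same course, higher in every knockout sham array than in every wild type sham array. None of the 6 was called in the knockout and wild type comparison after MCAO. In naive mice Mpo differed by -0.39 (limma adjusted p = 0.031), opposite in sign to its sham difference of 0.86.

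The neutrophil genes S100a8 and S100a9, whose products form calprotectin, had sham differences of -0.09 (SE 0.68) and -0.25 (SE 0.71), which did not pass. After MCAO S100a8 spanned 8.47 to 10.73 in wild type and 5.61 to 9.09 in knockout arrays, and S100a9 spanned 8.64 to 11.26 and 5.50 to 8.60. Their interactions of -1.66 (SE 0.82, adjusted p = 0.168) and -1.83 (SE 0.85, adjusted p = 0.146) did not pass. They were named after their values were seen.

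A list of genes of tissues outside the brain served as a check on dim signals. Of its 29 genes 1 was called positive and 4 negative, against 4.09% and 5.5% of all genes. The median was -0.28, and 27 lay below the median level, where 910 of 9096 genes were called negative. The kidney gene Nphs1 had -0.84 (SE 0.17, adjusted p = 0.0167), and its sham arrays read 5.61, 5.48 and 5.57 in wild type and 6.20, 6.30 and 6.52 in knockout. The sperm gene Tnp1 (-0.62), the pancreatic carboxypeptidase Cpa1 (-0.57) and the kidney transporter Slc12a1 (-0.62) were likewise higher in every knockout sham array, and the other probe set of Tnp1 and of Slc12a1 pointed the other way without a call. Krt10, a keratin of skin and named after its values were seen, was the positive call (0.91). Their values, from genes of other organs, stand beside those of the dim leukocyte genes.

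Clock genes were called in 3 of 19 cases, all positive, against 4.09% of all genes called positive. Only 3 of the 19 lay below the median level, and at or above it 649 of 9097 genes were called positive. The list median of 0.27 went to 0.07 after repeated quantile normalization, with 0 called, and to 0.17 after median centring, with 1 called. Per2, a core repressor of the circadian clock, read 9.35, 8.83 and 8.79 in wild type sham and 8.66, 8.45 and 8.11 in knockout sham arrays. After MCAO the lowest, median and highest were 7.45, 7.69 and 7.86 in wild type and 7.95, 8.14 and 9.04 in knockout. The genotypes did not overlap after either surgery, with the knockout lower after sham and higher after MCAO. Neither difference was called, at -0.59 after sham (limma adjusted p = 0.13) and 0.71 after MCAO (adjusted p = 0.102). Per2 fell by 1.31 in wild type and changed by -0.01 in the knockout, an interaction of 1.30 (SE 0.29, adjusted p = 0.0182). The MCAO arrays gave the larger share, with 45.0% from the sham arrays, and the interaction was 1.12 to 1.43 without single sham arrays.

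The related repressors Per3 (0.88, SE 0.28, adjusted p = 0.0495) and Cry1 (0.68, SE 0.20, adjusted p = 0.0389) had 80.9% and 87.2% of their interaction from the sham arrays. The labels give no time of day.

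The receptor's own pathway was read from 28 genes of adrenergic and cyclic AMP signalling. Of these 2 were called positive and 0 negative, against 4.09% and 5.5% of all genes. Only 3 of the 28 lay below the median level. At or above it 649 of 9097 genes were called positive, a share like that of this list. The list's median was 0.22, and 0.04 after repeated quantile normalization. Prkar2b, the type II beta regulatory subunit of protein kinase A, read 9.44, 9.80 and 9.28 in wild type sham and 9.36, 8.78 and 8.47 in knockout sham arrays, which overlapped. After MCAO the medians were 8.50 in wild type and 8.81 in knockout. It fell by 1.07 in wild type and changed by -0.04 in the knockout, an interaction of 1.04 (SE 0.26, adjusted p = 0.0235), 61.6% from the sham arrays, and 0.84 to 1.28 without single ones. Akap5, a scaffold that anchors protein kinase A at synapses, fell by 1.61 and by 0.62 (interaction 0.996, SE 0.31, adjusted p = 0.0466). The cyclic AMP target Crem (0.54) and the phosphodiesterase Pde10a (0.87), chosen after their values were seen, did not pass.

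Each list in this paragraph held 1 call, where 4.09% of all genes were called positive and 5.5% negative. Among 24 immediate early genes 1 was called, Ier5 (0.81, SE 0.26, adjusted p = 0.0482), with 96.6% from the sham arrays and a range of 0.56 to 1.13 without single ones. Of 17 respiratory chain genes 1 was called, Cycs, which codes for cytochrome c (0.54, SE 0.16, adjusted p = 0.0389), with 99.3% from the sham arrays. Fas, the death receptor, was the call among 13 genes of apoptosis and p53 targets, with -1.01 (SE 0.24, adjusted p = 0.0199). It was -1.04 to -0.95 without single sham arrays. Fas rose by 1.33 in wild type and by 0.33 in the knockout, where the change was not called. Its knockout sham arrays read 5.12, 5.16 and 5.29 against 4.37, 4.36 and 4.47 in wild type. In naive mice Fas differed by -0.44 (limma adjusted p = 0.0004), opposite in sign to its sham difference of 0.79. Tpx2, a spindle protein, was the call among 17 genes of cell division (-1.23, SE 0.28, adjusted p = 0.0194), and Hdc, the histidine decarboxylase of histaminergic neurons, was the call among 14 thalamic and hypothalamic genes (-0.75, SE 0.22, adjusted p = 0.0417). Other probe sets pointed the other way without a call for Tpx2 (2 of 3), Ier5 (1 of 2) and Cycs (1 of 3). The thalamic and hypothalamic list was higher in the knockout by a median of 0.52 after sham and by 0.00 after MCAO. The part of its genes in other results was not tested.

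The neuron lists held no call, with 0 of 19 glutamatergic and pan-neuronal, 0 of 13 GABAergic and 0 of 14 striatal genes called. Over all genes 4.09% were called positive and 5.5% negative. The genes with the largest positive interactions above the median level included single genes with known roles in neurons. Tbr1, a transcription factor of deep cortical layers, read 9.26, 8.74 and 8.97 in wild type sham and 8.62, 8.35 and 7.78 in knockout sham arrays, and after MCAO its medians were 7.90 and 8.68. The knockout was lower in every sham array and overlapped the wild type after MCAO. Tbr1 fell by 0.93 in wild type and changed by 0.31 in the knockout (interaction 1.23, SE 0.30, adjusted p = 0.0213). The sham arrays gave 60.01%, and without single sham arrays the interaction was 0.999 to 1.42.

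The potassium channel subunit Kcnv1 fell by 1.84 in wild type, and in the knockout its change was -0.60 (interaction 1.24, SE 0.39, adjusted p = 0.0486, 39.1% from sham). The AMPA receptor partner Shisa9 had an interaction of 1.14 (SE 0.31, 46.1% from sham), and the anoctamin Ano3 of 1.37 (SE 0.42, 57.1% from sham). The kainate receptor subunit Grik3 had 1.30 (SE 0.29, 77.8% from sham) and the extracellular proteoglycan Spock3 1.22 (SE 0.35, 70.4% from sham). Another probe set of Grik3 and another of Spock3 were called in the opposite direction, and another of Shisa9 pointed that way without a call. The striatal neuron list, which marks how much striatum a hemisphere sample holds, had a mean level of 8.96 to 10.87 over wild type sham and 9.12 to 10.55 over knockout sham arrays, with a median interaction of 0.57 over its genes.

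Other large positive interactions were those of Exph5, a Rab27 effector (1.46, SE 0.42), and Rab40b, a small GTPase (1.19, SE 0.37), both split. Rab40b turned to -0.06 with the interquartile range as a covariate. Gfra2, the neurturin receptor, had 1.15 (SE 0.30) with 77.2% from sham, and 3 of its 4 other probe sets pointed the other way. Fnip1, which binds folliculin in the regulation of AMPK, read 9.51, 9.55 and 9.47 in wild type sham and 8.87, 8.62 and 8.41 in knockout sham arrays, which were apart. Its interaction was 1.21 (SE 0.23, adjusted p = 0.0164), was called in 5 of the 6 fits without a sham array, and was 0.96 after repeated quantile normalization (adjusted p = 0.047).

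On the negative side E2f5, a repressor of the E2F family, and Aif1l, a relative of Aif1, had interactions that stood wholly in the sham arrays. E2f5 read 9.09, 9.02 and 9.14 in wild type sham and 10.17, 10.35 and 10.46 in knockout sham arrays, with MCAO medians of 9.27 and 9.25. Its interaction was -1.26 (SE 0.33, adjusted p = 0.028), 98.6% from the sham arrays, and -1.33 to -1.19 without single ones. Of its 2 other probe sets both had the opposite sign, and 1 of them was called. Aif1l read 8.75, 8.69 and 8.76 against 9.76, 9.96 and 10.07 after sham, with MCAO medians of 8.94 and 8.91 and an interaction of -1.18 (SE 0.30, adjusted p = 0.0239), and 1 of its 2 other probe sets pointed the other way. In naive mice the genotypes differed by -0.14 in E2f5 and -0.01 in Aif1l, and neither passed.

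The RNA-binding protein Igf2bp1 (-1.09, SE 0.26), the MHC class II chain H2-Ea (-1.04, SE 0.22), the p53-binding inhibitor Ppp1r13l (-0.95, SE 0.22), the trypsinogen Prss2 (-0.95, SE 0.24), the flap endonuclease Fen1 (-0.98, SE 0.19) and the transcripts 1810064F22Rik (-1.01, SE 0.21) and 2010109A12Rik (-0.98, SE 0.21) completed the most negative values. The other probe set of Fen1 pointed the other way without a call. All 7 had 74.5% to 100.7% of their interaction from the sham arrays. Each was higher in every knockout sham array than in every wild type sham array and overlapped after MCAO. Prss2 belongs to a family of closely similar genes, and its probe set may share signal with them.

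Above the median level, opposite responses were called in 13 genes with a positive and 8 with a negative interaction. The most negative of these was Nfkb2, and 1810064F22Rik and Fen1 also rose in wild type and fell in the knockout. Krit1, an endothelial junction protein, Acsl4, an enzyme that activates polyunsaturated fatty acids, Hipk3, a kinase, Ranbp6, an importin, and Sirt1, a NAD-dependent deacetylase, fell in wild type and rose in the knockout. Sirt1 read 7.86, 7.87 and 7.90 in wild type sham and 7.19, 7.33 and 7.14 in knockout sham arrays. In MCAO arrays the lowest, median and highest were 7.24, 7.46 and 7.56 in wild type and 7.32, 7.74 and 8.04 in knockout. The sham groups were far apart relative to their own spread, and the MCAO groups overlapped. Sirt1 fell by 0.47 in wild type (adjusted p = 0.0131) and rose by 0.48 in the knockout (adjusted p = 0.0079).

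The interaction of Sirt1 was 0.96 (SE 0.18, adjusted p = 0.0161), 0.92 to 1.01 without single sham arrays and called in 5 of those 6 fits. After repeated quantile normalization it was 0.85 (adjusted p = 0.038). Acsl4 (1.06, SE 0.21), Hipk3 (1.04, SE 0.21), Ranbp6 (0.996, SE 0.20) and Krit1 (1.09, SE 0.25) were alike in course, with 64.3% to 76.5% from the sham arrays, and 2 of the 4 other probe sets of Krit1 pointed the other way without a call. In naive mice Sirt1 differed by 0.04 (adjusted p = 0.94) and the other 4 by -0.26 to 0.13, and none passed.

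Ranked by the largest unadjusted p over the 6 fits without a sham array, the least sensitive interactions were, in alphabetical order, those of 4933412E24Rik, 8430426J06Rik, Actl9, Hsf2bp, Ifna1, Klk1b27, Nfkb2, Nkx2-5, Sptlc3 and T2. Their largest p-values lay between 2.0e-05 and 7.6e-05, and each was called in 5 of the 6 fits. All 10 were negative. Hsf2bp, a testis protein that binds heat shock factor 2, read 4.91, 4.85 and 5.16 in wild type sham and 5.68, 5.78 and 5.64 in knockout sham arrays, with MCAO medians of 5.20 and 5.12. Its interaction was -0.88 (SE 0.14, adjusted p = 0.0148) and -0.98 to -0.82 without single sham arrays. Apart from Nfkb2 these genes lay below the median level, among them the heart transcription factor Nkx2-5 (-0.88), the sphingolipid enzyme Sptlc3 (-0.75) and the testis actin-like gene Actl9 (-0.80). The kallikrein Klk1b27 (-0.91) and the type I interferon Ifna1 (-0.98) belong to families of near-identical genes.

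Of these 10, Ifna1 was the gene whose MCAO ranges were apart too. It read 4.91, 5.39 and 5.59 in wild type sham and 5.68, 5.87 and 6.08 in knockout sham arrays, and 5.50 to 5.77 in wild type against 5.14 to 5.32 in knockout MCAO arrays. The sham arrays gave 59.3% of its interaction.

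The 5 genes whose interaction stood in the MCAO arrays were Dusp6, Ttll4, Brd1, Lrrc8c and Ppp2r1b, all positive. Dusp6 codes for the phosphatase that inactivates ERK. It read 10.41, 9.97 and 9.90 in wild type sham and 10.31, 10.29 and 9.51 in knockout sham arrays, which overlapped. The MCAO values (lowest, median and highest) were 9.21, 9.42 and 9.72 in wild type and 10.04, 10.18 and 10.26 in knockout, so every knockout array stood above every wild type array. Dusp6 fell by 0.64 in wild type (adjusted p = 0.0066) and changed by 0.11 in the knockout. The genotype difference was -0.06 (SE 0.18) after sham and 0.70 (SE 0.12, adjusted p = 0.0252) after MCAO.

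The interaction of Dusp6 was 0.75 (SE 0.22, adjusted p = 0.0365), with 7.58% from the sham arrays. Knockout sham array 3, at 9.51, was the lowest of its group, and without it the interaction was 0.49 (unadjusted p = 0.0154). In naive mice the genotypes differed by 0.50 (SE 0.28, adjusted p = 0.26).

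Ppp2r1b, a scaffold subunit of protein phosphatase 2A, read 8.37, 8.08 and 8.10 in wild type sham and 8.14, 8.02 and 7.80 in knockout sham arrays. After MCAO it read 8.00, 8.31 and 8.38 (lowest, median and highest) in wild type and 8.57, 8.79 and 9.05 in knockout. The genotypes overlapped after sham and were apart after MCAO. Ppp2r1b rose by 0.78 in the knockout and changed by 0.08 in wild type, an interaction of 0.70 (SE 0.16, adjusted p = 0.0197). It was 0.60 to 0.77 without single sham arrays and called in 3 of those 6 fits. In naive mice the difference was 0.22 (adjusted p = 0.0729).

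The tubulin polyglutamylase Ttll4 (0.52, SE 0.16, adjusted p = 0.04997), the bromodomain protein Brd1 (0.55, SE 0.16, adjusted p = 0.0417) and the volume-regulated channel subunit Lrrc8c (0.48, SE 0.15, adjusted p = 0.0495), named after their values were seen, were called in 0 of the 6 fits without a sham array. The 3 other probe sets of Ttll4 and of Brd1 pointed the other way without a call.

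The 8 genes called between the genotypes after MCAO were mostly alike in direction after sham, so that their interaction was near 0. Pmaip1, which codes for the p53-induced cell death protein Noxa, read 6.18, 6.30 and 5.64 in wild type sham and 4.45, 4.63 and 4.55 in knockout sham arrays. After MCAO it read 7.04, 7.70 and 8.84 (lowest, median and highest) in wild type and 5.88, 6.23 and 6.80 in knockout. It was lower in every knockout array after either surgery, with differences of -1.50 and -1.47, and rose by 1.69 and 1.72. Its interaction was 0.03 (SE 0.36, adjusted p = 0.961), and in naive mice its difference was -2.33 (adjusted p = 2.78e-05).

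Il18, a cytokine of the inflammasome, was lower in the knockout, with differences of -0.58 after sham, -0.47 after MCAO and -0.58 in naive mice, with an interaction of 0.11 (SE 0.13). The transcript 1500015A07Rik had differences of -0.89, -1.09 and -1.26 in the same order, and the Polycomb subunit Ring1 was higher by 0.90, 0.70 and 0.73, the last not called. Tmem243 and 4930503L19Rik completed the 8, with interactions of 0.18 and -0.30 that did not pass. These 6 genes were named after their values were seen.

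The naive arrays give the genotype difference in animals without surgery, from other arrays. There 2689 genes were called (14.8%). Of the 1000 interaction genes that were higher in the knockout after sham, 348 were higher in naive knockout mice, 44 of them called, and 652 were lower, 139 of them called. Of the 744 genes that were lower after sham, 402 were lower in naive knockout mice, 1 of them called, and 342 were higher, 13 of them called. The sham direction thus recurred by call in 45 genes and was opposed by call in 152, and after repeated quantile normalization these were 61 and 105. Wild type naive array 6 stands apart, with an interquartile range of 2.63 and an actin measure of 4.88. Without it the sham direction recurred by call in 123 genes and was opposed by call in 329. By sign alone 437 of the 1000 were then higher and 247 of the 744 lower, and naive calls numbered 6664. The naive set's median signal was higher in every knockout array (7.02 to 7.05) than in every wild type array (6.87 to 6.94), and with median centring its calls were 197 higher and 2448 lower, against 1170 and 1519 as deposited.

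The lists of reactive astrocytes, striatal, pan-neuronal and GABAergic neurons, oligodendrocytes, resting astrocytes, endothelium, interferon response, oxidative stress, matrix remodelling, cholesterol synthesis, choroid plexus, meninges, cerebellum and erythrocytes had 0 interaction calls. These 15 lists held 214 measured entries, of which 17 had an unadjusted p under 0.05 in limma. Since the lists are grouped by having no call, that count is only a description. Reactive astrocyte genes rose by a median of 2.12 in wild type and 2.47 in the knockout, with a median interaction of 0.27. The meningeal and fibroblast genes had a median interaction of 0.37 and the choroid plexus genes of 0.26, with sham medians of -0.07 and -0.24. The part of such neighbouring tissue in the results was not tested.

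**Figure D5:**
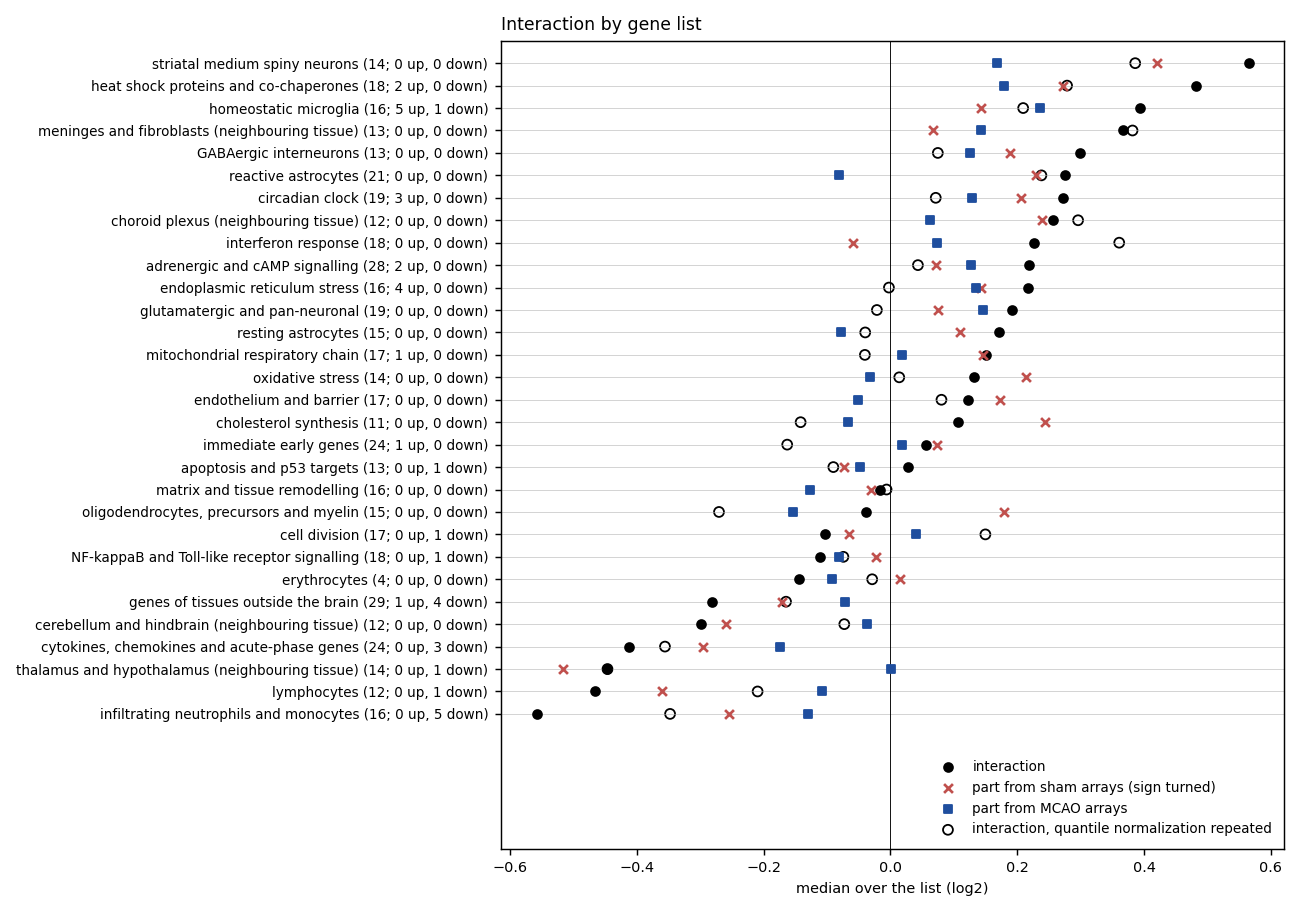
Each row is a gene list with its number of measured genes and of positive and negative calls, and symbols give the list's median interaction, the parts of it from sham and MCAO arrays, and the interaction after repeated quantile normalization, in log2 units. Striatal neuron genes (0.57, with 0 called), heat shock genes (0.48) and resting microglia (0.39) lie farthest to the right. Neutrophils and monocytes (-0.56), lymphocytes (-0.47), thalamus and hypothalamus (-0.45) and cytokines (-0.41) lie farthest to the left. Open circles are mostly nearer 0 than filled ones.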

How the data were processed

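RNA of brain hemispheres was hybridized to Affymetrix mouse arrays, and the authors deposited log2 values made with RMA (named in the submitters' processing notes; its version is not given in the sources used here). RMA gives no per-gene depth. Of 45101 probe sets 64 were controls, 34945 had 1 gene symbol, 932 several and 9160 none listed; the signals of controls were used only as quality readings. Entrez IDs tied 34741 of the probe sets with 1 symbol to the reference. Each of 18193 genes was read from its probe set of highest mean signal in the 20 surgery arrays, kept in all fits. Values of the targeted receptor are not reported here.

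Titles gave the groups. Limma 3.58.1 (lmFit, contrasts.fit and eBayes, in R 4.3.3) was fitted to the 20 surgery arrays with 4 group means, and separately to the 15 naive arrays, with Benjamini-Hochberg adjustment over all genes at 0.05. The pipeline was tested on simulated data. Tables and plots were made with Python 3.11.15, pandas 2.3.3 and matplotlib 3.10.9. The members, gene lists and rules were chosen with earlier results of these data known.

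Named genes were the 12 largest positive and negative calls at or above the median level, up to 4 called members of each list by p, calls shared with the MCAO genotype difference, the 10 with the smallest worst p over fits without a sham array, and the 8 largest opposite responses at or above the median level. Not all list members so eligible are described at equal length. Lists served as descriptions by counts and medians. Alternatives were a replicate block, array weights, a robust prior with an intensity trend, stricter thresholds, repeated quantile normalization, median centring, the mean of a gene's probe sets or each of them, omission of genes below the median level, control-probe covariates, other limits for the place of the difference, and leaving out each array. The interquartile range covariate, quantile normalization without each sham array, and the naive alternatives were chosen after seeing the data.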

Additional observations from a re-analysis of the deposited data

Results flagged for a closer look

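In 174 groups of values examined, 16 had an array far from the rest by Dixon's test, where chance flags about 1 in 20. Wild type MCAO array 4 was lowest of its group for Hspe1 (10.56), Per3 (7.72) and Krt10 (6.84) and highest for H2-Ea (8.40) and Pmaip1 (8.84). Wild type MCAO array 6 was lowest for Brd1 (7.96) and Hipk3 (9.59), and wild type MCAO array 3 for Tnp1 (3.52). Knockout MCAO array 1 was highest of its group for Ltf (5.92) and Prss2 (8.11), array 4 for Fas (6.24) and array 7 for Hspe1 (11.79). Wild type naive array 6 had the lowest interquartile range (2.631) and the highest 3 prime minus 5 prime difference of actin (4.88) and of Gapdh (3.511). Knockout naive array 4 had the highest Gapdh difference of its group (0.15). The response to MCAO differed between the genotypes in 1744 genes by the interaction test. In 1136 of them at least 70% came from the sham arrays, a placement that the smaller number of sham arrays favours.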

How the results depend on the processing

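The count of interaction calls, 1744 with all arrays, was 561 without dim genes, 169 after repeated quantile normalization, 4100 with array weights, 757 with the Gapdh covariate, 8 with the actin covariate, 0 with the interquartile range covariate, 2628 over all probe sets, 0 at an adjusted p under 0.01 (5732 at an unadjusted p under 0.05) and 77 at 2-fold or more. It was 0 to 2692 without single arrays, 0 to 561 without dim genes and a sham array, and with quantile normalization 0, 0 and 12 without wild type sham arrays 1, 2 and 3 and 291, 0 and 0 without the knockout ones. In the same order of settings the 1101 sham calls became 402 without dim genes, 71 with quantile normalization, 5891 with array weights, 6 with the actin and 0 with the interquartile range covariate, 1697 over all probe sets, 6 at the stricter p and 14 at 2-fold. Median centring gave 565, and leaving out single arrays 0 to 1830. The 8 MCAO calls became 2 with the Gapdh, 986 with the actin and 4 with the interquartile range covariate, 24 over all probe sets, 2 at the stricter p, 2 at 2-fold and 3 to 38 without single arrays. MCAO responses in wild type gave 4472 calls with array weights, 1697 with the interquartile range covariate, 1286 at the stricter p, 521 at 2-fold and 1435 to 3231 without single arrays. In the knockout they gave 2826 without dim genes, 7239 with array weights, 2856 with the actin and 1663 with the interquartile range covariate, 7165 over all probe sets, 2170 at the stricter p, 485 at 2-fold and 2337 to 5395 without single arrays. Naive calls were 1537 with quantile normalization and 6664 without wild type array 6. Genes placed in the sham arrays numbered 592 with a limit of 80% and 1492 with 60%. With the interquartile range covariate the interactions of Rab40b (-0.0578) and Mpo (0.1722) changed sign. The other 66 named genes kept their sign and none was called, and some came close to 0, such as Akap5 (0.007), Ltf (-0.03) and Per3 (0.06). The causes of these changes were not tested, except that stricter limits and fewer arrays or genes act by construction. Of the 68 named genes 66 remained called with an intensity trend, 56 with median centring, 44 with the mean of probe sets, 22 after quantile normalization, 7 with the actin covariate and 0 without knockout sham array 3. With the replicate number as a block 1619 interaction calls were made, 64 of the 68 among them. Same-numbered arrays of different groups had deviations that correlated at -0.28 to 0.34, with 5 of 22 pairs over 0.1. The median was -0.0141, against 0.0175 for other pairs. No pairing by number was seen, and with so few arrays these correlations cannot exclude one. Dim genes are limited by background signal, which was not analysed here.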
